A study of Amphimedon queenslandica with 144 samples.

Results

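Among the gene models of the demosponge Amphimedon queenslandica, 135 models lay in 41 runs of consecutive identifier numbers in which every model was higher in settled post-larvae than in swimming larvae. The settlement difference of a model was its median of log2(CPM + 1) in 27 settled animals minus its median in 36 swimming larvae, where CPM is an animal's counts scaled to the same total of 1000000. A run was kept when at least 3 neighbouring numbers all had a settlement difference of 0.5 or more. The 135 members were 135 of 44016 Aqu2.1 gene models, in a table of 47411 features. Of the runs, 32 had 3 members, 7 had 4 members, 1 had 5 and 1 had 6. The members were thus selected on the counts of these 27 settled animals and 36 swimming larvae, and the contrast between settled and swimming animals is described below with no test. Contrasts within the settled animals were tested, and they are not independent of that choice. The models are given by identifier, since 0 identifiers matched the gene table at hand, and no roles, positions or sequences could be attached to them.

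Single animals were sequenced, and all but the youngest had spent 2 h alone in a well with a piece of coralline alga or with filtered seawater only. Settled post-larvae with the articulated alga Amphiroa fragilissima numbered 6 after induction at 5 h post emergence (collected at 7 h) and 7 after induction at 8 h (collected at 10 h). Settled post-larvae with the crustose alga Mesophyllum sp. numbered 7 at each of these ages. Settled animals had attached to a surface, which need not have been the alga. Swimming larvae formed groups of 9 for A. fragilissima, Mesophyllum sp. and seawater at each of the induction ages 1.5, 3, 5 and 8 h (collected at 3.5, 5, 7 and 10 h), and 9 further larvae were taken at 0.5 h with no cue. The 36 swimming larvae of the rule were those given either alga at 5 or 8 h. The other 81 larvae gave no value to the rule.

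Sponge larvae are free-swimming, ciliated and do not feed. On a suitable surface they attach and reorganise their body in metamorphosis into a filtering juvenile, and coralline algae are among the surfaces that induce this in A. queenslandica. Neighbouring genes can share expression because they are tandem copies, because they lie in the same chromatin environment or share regulatory sequence, or because a transcript has been split over several gene models. CEL-Seq2 counts tags from the 3′ ends of transcripts, so a gene model without a 3′ end of its own may collect few tags. Neighbouring numbers were taken as neighbouring models. The table holds no coordinates, strand or paralogue marks, so overlap of models and sharing of reads between copies was not tested and counts of neighbours may not be fully separate.

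Total counts ran from 874227 to 2645808 in settled animals, from 999233 to 2905367 in the 36 swimming larvae and from 541737 to 4692279 in the other 81. Batch and settlement were unevenly combined, since 25 of 27 settled animals came from library batch C and 2 from T, whereas the 36 swimming larvae split into 14 from C, 14 from T and 8 from K. Within batch C alone, 126 of the 135 members had a settlement difference of at least 0.5 and 134 were above 0, with a median of 1.46 (25 settled animals and 14 swimming larvae). These animals also chose the members, so a high share was fixed in advance and does not set batch aside. The rule applied to batch C alone found 145 members, of which 110 were shared with the 135. Swimming larvae with A. fragilissima at 5 h came from T and K only, so cue and age were unbalanced in C. Scaling by total counts left the median tested Aqu2.1 model at -0.33 and trimmed-mean scaling left it at -0.07. The members' median was 1.29 with totals and 1.61 with trimmed-mean scaling, where 134 of 135 kept 0.5 or more. RNA came from whole animals, so more cells of a type and more RNA per cell cannot be told apart.

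The settlement differences ran from 0.50 to 6.48 on the log2 scale. They reached 2 in 50 members and 1 in 83, and lay between the threshold and 1 in 52. The members together took 0.645% of an animal's counts in the lowest settled animal, 3.85% in the median and 6.04% in the highest, against 0.677%, 0.761% and 1.32% in the 36 swimming larvae. In the 81 larvae outside the rule the shares were 0.580%, 0.773% and 1.11%. The settled median thus lay above the highest swimming larva, and the lowest settled animal lay below the lowest of the 36. Mean levels in settled animals were at least 100 CPM for 57 members, 10 to 100 CPM for 51 and below 10 CPM for 27, of which 11 were below 2 CPM. Models past the same difference but outside such runs numbered 1381. Their median settled mean was 12.2 CPM, against 70.4 CPM for the members, and 23.8% of them reached 100 CPM, against 42.2% of the members.

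**Figure D1:**
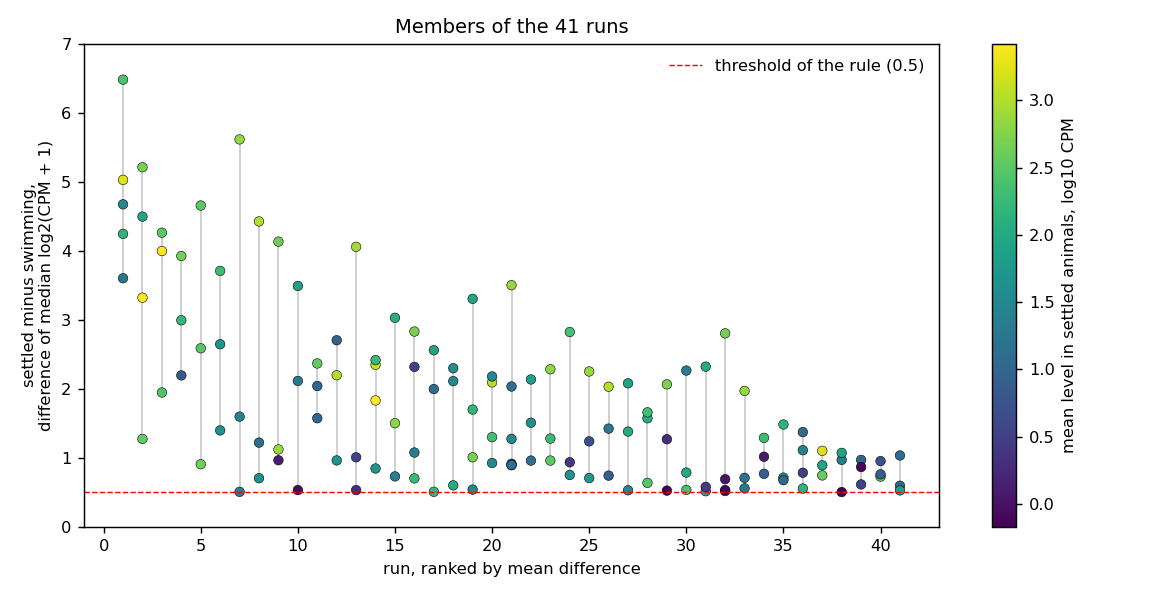
Settlement difference (median log2(CPM + 1) in settled animals minus swimming larvae, vertical axis) of each of the 135 members, with the 41 runs ranked by their mean difference along the horizontal axis and colour giving the mean settled level as log10 CPM. The dashed line is the threshold of 0.5, and the first run reaches 6.48 while most runs hold members close to the threshold beside higher ones.

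The run with the highest mean difference was Aqu2.1.27551_001 to Aqu2.1.27555_001, whose 5 settlement differences were 5.03, 6.48, 4.68, 3.60 and 4.25. Aqu2.1.27551_001 had 8.44 CPM in the lowest, 1553 CPM in the median and 4496 CPM in the highest settled animal, against 4.52, 47.2 and 215 CPM in swimming larvae. Aqu2.1.27552_001 had 4.63, 267 and 444 CPM in settled animals, against 0, 2.00 and 117 CPM in swimming larvae. Both had 21 of 27 settled animals above the highest swimming larva, and in both the lowest settled animals lay within the swimming range. Aqu2.1.27553_001 had 0, 24.5 and 167 CPM in settled animals, against 0, 0 and 7.60 CPM in swimming larvae, and was detected in 26 of 27 and 16 of 36. Aqu2.1.27554_001 had 0, 11.2 and 114 CPM in settled animals, against 0, 0 and 1.54 CPM in swimming larvae, and was detected in 24 of 27 and 11 of 36. Aqu2.1.27555_001 had 1.05, 170 and 316 CPM in settled animals, against 2.49, 8.00 and 39.9 CPM in swimming larvae. These last 3 had 20, 19 and 20 settled animals above every swimming larva of the 36. The model just before this run, Aqu2.1.27550_001, had a difference of 0.35 and the one just after it, Aqu2.1.27556_001, had -0.07.

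The run Aqu2.1.38629_001 to Aqu2.1.38632_001 held the most abundant member. Aqu2.1.38629_001 had 209, 2828 and 6028 CPM in the lowest, median and highest settled animal, against 95.1, 282 and 912 CPM in swimming larvae. Aqu2.1.38630_001 had 3.69, 79.2 and 285 CPM in settled animals, against 0.432, 2.56 and 15.2 CPM in swimming larvae. Aqu2.1.38631_001 had 17.5, 596 and 981 CPM in settled animals, against 4.58, 15.1 and 127 CPM in swimming larvae. Of the 27 settled animals, 20, 20 and 21 stood above all 36 swimming larvae for these 3 models. Aqu2.1.38632_001 had 74.1, 260 and 1093 CPM in settled animals, against 68.0, 107 and 155 CPM in swimming larvae, with 16 settled animals above. The differences of the run were 3.32, 4.50, 5.21 and 1.27, so that its last member differed least.

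**Figure D2:**
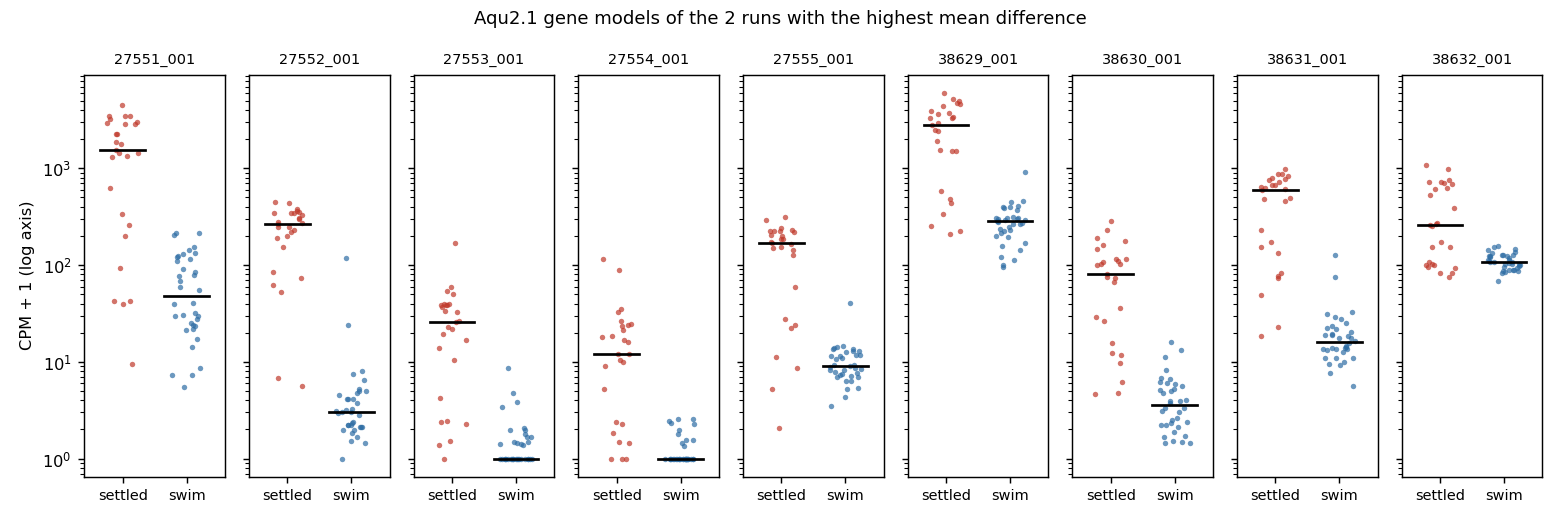
CPM + 1 on a log axis for each model of the runs that start at Aqu2.1.27551_001 (left 5 panels) and at Aqu2.1.38629_001 (right 4 panels), with 1 point per animal, 27 settled animals at the left and 36 swimming larvae at the right of each panel. Between 16 and 21 of the 27 settled animals lie above all 36 swimming larvae in each panel. The other settled animals lie within the swimming range or below it, down to 8.44 CPM for the first model.

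The next 3 runs also mixed strong and weak members. In the run Aqu2.1.30884_001 to Aqu2.1.30886_001 the differences were 1.95, 4.26 and 4.00. Aqu2.1.30886_001 had 144, 2490 and 4548 CPM in the lowest, median and highest settled animal, against 108, 155 and 1194 CPM in swimming larvae. Aqu2.1.30885_001 had 12.9, 328 and 669 CPM in settled animals, against 8.75, 16.1 and 68.6 CPM in swimming larvae. Aqu2.1.30884_001 had 38.6, 310 and 455 CPM in settled animals, against 20.9, 79.7 and 190 CPM in swimming larvae. The swimming ranges overlapped the settled ones for all 3, with 22, 21 and 19 settled animals above the highest swimming larva. In the run Aqu2.1.26685_001 to Aqu2.1.26687_001 the differences were 2.99, 2.20 and 3.93. Its middle member Aqu2.1.26686_001 was low, with 0, 3.58 and 33.5 CPM in settled animals, against 0, 0 and 2.78 CPM in swimming larvae. Its outer members were higher. Aqu2.1.26685_001 had a median of 161 CPM in settled animals, against 19.4 CPM in swimming larvae, and Aqu2.1.26687_001 had 322 CPM in settled animals, against 20.2 CPM in swimming larvae. In the run Aqu2.1.43673_001 to Aqu2.1.43675_001 the differences were 2.59, 4.66 and 0.91, with the largest in the middle. Aqu2.1.43674_001 had 17.5, 264 and 897 CPM in settled animals, against 3.32, 9.51 and 157 CPM in swimming larvae. Its neighbours Aqu2.1.43673_001 and Aqu2.1.43675_001 had settled medians of 206 and 267 CPM, against swimming medians of 33.5 and 142 CPM.

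The longest run was Aqu2.1.26572_001 to Aqu2.1.26577_001, with differences of 2.03, 3.50, 1.27, 0.91, 0.89 and 0.90. Aqu2.1.26573_001 led it, with 18.01, 547 and 2147 CPM in the lowest, median and highest settled animal, against 3.55, 47.4 and 174 CPM in swimming larvae, and 22 settled animals stood above the highest swimming larva. Aqu2.1.26576_001 had 21.5, 96.9 and 280 CPM in settled animals, against 24.8, 51.7 and 162 CPM in swimming larvae, and 7 settled animals stood above. Aqu2.1.26575_001 had 0 settled animals above. Aqu2.1.26572_001 had 15 settled animals above, Aqu2.1.26574_001 had 6 and Aqu2.1.26577_001 had 7. The separation was therefore widest for Aqu2.1.26573_001, less for Aqu2.1.26572_001 and slight for the others.

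Across the members, the median number of settled animals above all 36 swimming larvae was 13 of 27, and the range was 0 to 25. The highest number belonged to Aqu2.1.39704_001, which averaged 2493 ± 1036 CPM over the 27 settled animals, against 671 ± 172 CPM over the 36 larvae (SD). Overlap was thus present for each of the 135, since 0 had all settled animals above every one of these larvae. High counts may be compressed. The counts have a ceiling that 6-base identifiers over 2 lanes would give, a length inferred from that ceiling and not stated in the labels, and the highest count of a member was 8070.

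Levels within a run were uneven. The most abundant member of a run held a median of 77.9% of the run's summed settled mean, with a range of 41.5% to 99.5%, and more than 80% in 15 runs. In swimming larvae the median share was 74.1%. The model on top in settled animals was on top in swimming larvae too in 37 of 41 runs and in the 81 other larvae in 36. The abundant member was also the one with the highest difference in 23 runs. Both quantities use the settled values, so this is no independent relation. Among the 32 runs of 3, the most abundant member was the first in 9, the middle in 12 and the last in 11. Ratios between members of a run differed between settled and swimming animals in some runs. Aqu2.1.43674_001 stood at 73.4% of the mean of its run's top member in settled animals and at 11.8% in swimming larvae. Aqu2.1.38632_001 stood at 14.4% of its run's top member in settled animals and at 38.5% in swimming larvae.

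A model next to a run lay below the threshold by the rule, so a drop at the border was fixed in advance. Of the 82 models flanking a run, 23 had a positive settlement difference, 43 a negative and 16 a difference of 0, with a median of -0.01, and 10 lay between 0.25 and the threshold. Just inside the threshold were Aqu2.1.41280_001 at 0.50, Aqu2.1.24979_001 at 0.51 and Aqu2.1.39655_001 at 0.51. Just outside, and able to complete or lengthen a run, were Aqu2.1.31258_001 at 0.49, Aqu2.1.43788_001 at 0.48 and Aqu2.1.03889_001 at 0.47. Aqu2.1.03889_001 averaged 15.1 CPM in settled animals against 0.388 CPM in swimming larvae, so that a median difference below the threshold does not mean equal means. In all, 371 models below the threshold would have completed or lengthened a run.

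Runs were a small share of all models past the threshold. Of the 1516 models past it (3.44% of Aqu2.1 models), 8.91% lay in runs of 3 or more, 1157 stood alone and 112 runs had 2 models. Models lower by 0.5 or more in settled animals were more numerous, 6290 (14.3%), and 19.8% of them lay in 361 runs of 3 or more. All these counts depend on scaling by totals, which left the median tested model at -0.33, against -0.07 with trimmed-mean scaling. With trimmed-mean scaling the rule found 81 runs of higher models in place of 41, and runs of lower models were not counted. Among models that passed the low-count filter, 7.92% were past the threshold upwards. Beside such a model, the share was 21.2% at a number distance of 1, 16.4% at 2, 11.7% at 3, 10.8% at 5, 9.02% at 10 and 6.28% at 100. The excess over 7.92% was thus found at short distances and was gone at 100. Beside a model that was lower, 42.8% of neighbours at distance 1 were lower, against 36.3% of all. These shares are descriptions of the rule's own values.

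The level of the members differed widely among settled animals. Averaged over the 135 members, log2(CPM + 1) was 3.76 in the lowest, 5.83 in the median and 6.47 in the highest settled animal, against 3.68, 3.84 and 4.59 in the 36 swimming larvae. The 81 other larvae had 3.41, 3.75 and 4.18. Of the 27 settled animals, 6 were no higher than the highest of the 36 swimming larvae, of which 4 had settled with Mesophyllum sp. when induced at 5 h, 1 with A. fragilissima at 5 h and 1 with A. fragilissima at 8 h. Batch C held 5 of these 6 animals and T held 1. Medians were 5.91 with A. fragilissima at 5 h, 6.12 with A. fragilissima at 8 h, 4.51 with Mesophyllum sp. at 5 h and 5.95 with Mesophyllum sp. at 8 h.

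**Figure D3:**
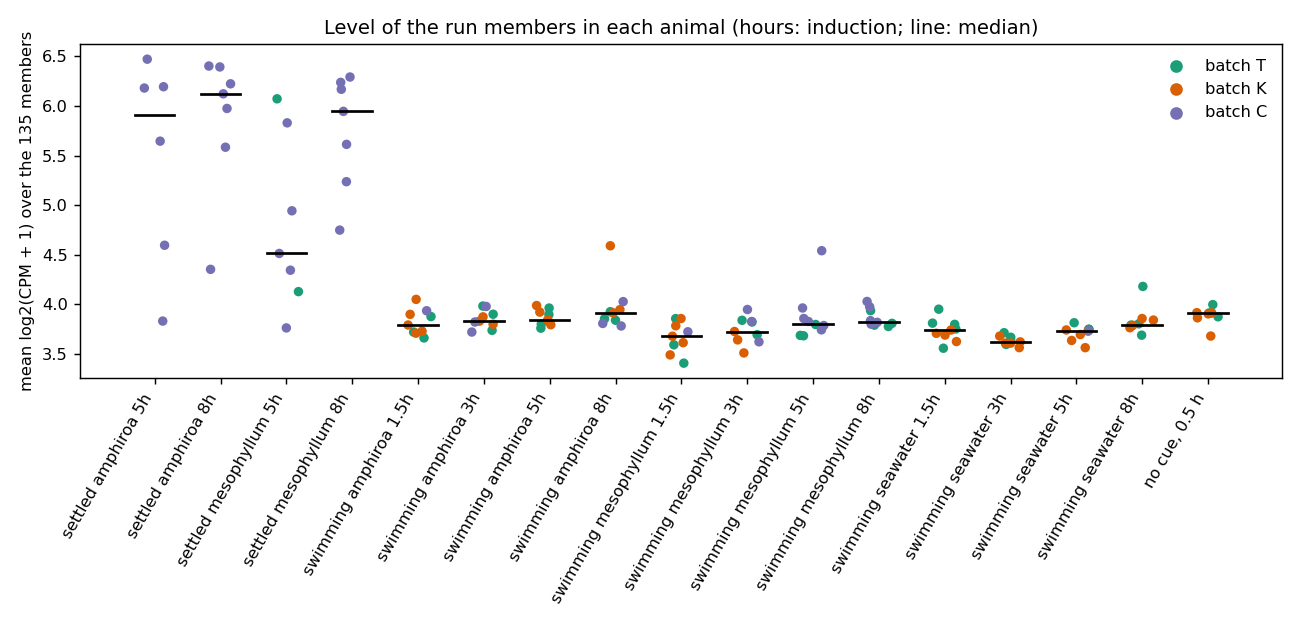
Mean log2(CPM + 1) over the 135 members in each of 144 animals, with the 17 groups along the horizontal axis, points coloured by library batch and a line at each group median. Swimming groups lie between 3.41 and 4.59, whereas settled groups spread from 3.76 to 6.47, and animals settled with Mesophyllum sp. at 5 h have the lowest settled median of 4.51.

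Members of a run varied together among settled animals, and so did members of different runs. With group and batch means removed, the 80 adjacent member pairs had a median Pearson r of 0.71 over the 27 settled animals, against 0.19 for all 8428 adjacent pairs of tested models, and 77 of the 80 pairs reached 0.3. Pairs of members from different runs had a median r of 0.52 (7484 pairs). Each run's mean level was also set against the mean of the other runs over the settled animals, with group and batch means left in. The r lay between 0.23 and 0.99, with a median of 0.87 and at least 0.7 in 32 of 41 runs. Differences between groups enter these r, so they do not compare directly with the pair values above. These values share their animals, their depth and the extent of settlement, and the settled animals chose the members.

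In the 81 larvae that the rule did not use, this joint variation was weak. Adjacent members had a median r of 0.11, with 56 of 80 pairs positive and 18.8% at 0.3 or more, against 0.10 and 19.2% over all 8428 adjacent pairs. Members of different runs had a median r of 0.03. Adjacent members before settlement thus lay close to neighbouring models in general. The pair with the highest r was Aqu2.1.33568_001 and Aqu2.1.33569_001, with 0.74 in these larvae and 0.83 in settled animals. The run with the highest median was Aqu2.1.13633_001 to Aqu2.1.13635_001, whose pairs had 0.35 and 0.44 in larvae and 0.72 and 0.69 in settled animals. Aqu2.1.39703_001 and Aqu2.1.39704_001 had -0.38 in larvae and 0.82 in settled animals, the lowest value of the 80 in larvae, and the pair was picked after its values were seen.

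**Figure D4:**
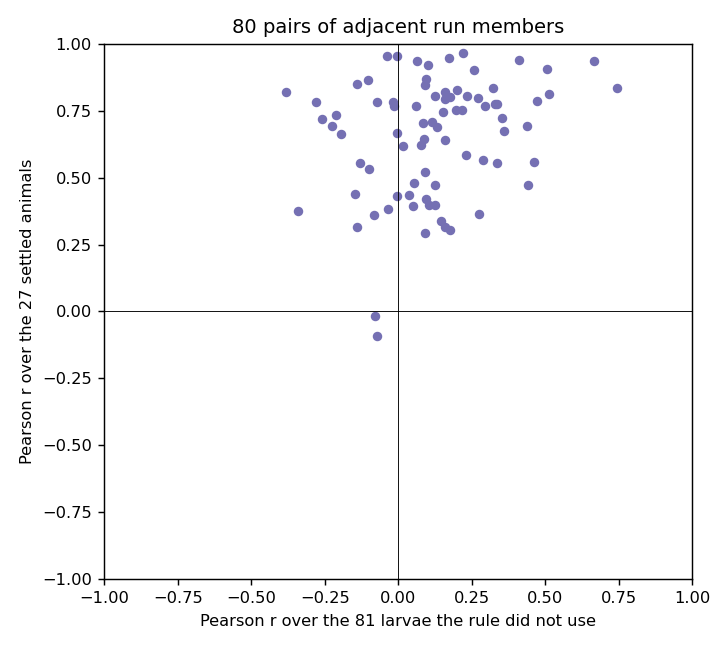
Pearson r between adjacent members of a run, over the 81 larvae outside the rule on the horizontal axis and over the 27 settled animals on the vertical axis, with 1 point per pair (80 pairs) and group and batch means removed. Points lie high on the vertical axis (median 0.71) and around 0.11 on the horizontal axis.

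Which members differed before settlement, or among settled animals, was asked with edgeR's quasi-likelihood test over 14950 features, of which 124 members passed the low-count filter (a filter that a model high in settled animals alone can pass). Log2 fold changes and their standard errors come from that fit, in which all 144 animals share 1 estimate of the spread per feature. The animals' mean log2(CPM + 1) over the members had SDs of 0.58 to 1.05 in settled groups and 0.05 to 0.26 in swimming groups. For contrasts within settled animals, the standard errors and adjusted p may therefore understate the spread among those animals. A member was called when its Benjamini-Hochberg adjusted p over all features was below 0.05. Replicates are separate animals.

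Between seawater larvae at 10 h and at 3.5 h, 6.45% of the tested members were called, near the share over all features. Outside the runs 7.89% of 1027 models past the threshold were called. Of the 124 members 5 rose and 3 fell, beside 7.93% of all features called (3.91% higher and 4.03% lower). The members' median log2 fold change was -0.02, against 0.02 over all features. Within batches K and T there were 4 calls each, beside 353 of 14947 and 302 of 14949 features. DESeq2 gave 13, beside 1504 of 14365 features. A fit of the compared groups alone gave 18, of which 7 were higher and 11 lower, beside 1226 of 14945 features. Aqu2.1.26576_001, of the longest run, had 30.6, 58.3 and 134 CPM in the lowest, median and highest larva at 10 h, against 12.0, 21.5 and 28.02 CPM at 3.5 h. All 9 older larvae lay above the 9 younger ones (log2 fold change 1.65 ± 0.32 SE, adjusted p = 9.96e-05, edgeR). It averaged 27.2 ± 5.81 CPM in uncued larvae at 0.5 h, and 20.2 ± 5.16, 23.6 ± 7.92, 45.1 ± 19.5 and 70.4 ± 36.5 CPM in seawater larvae at 3.5, 5, 7 and 10 h (SD, n = 9 each). The other 5 members of that run were not called. Aqu2.1.27551_001, the first of the top run, had 12.2, 50.2 and 142 CPM at 10 h, against 3.46, 10.2 and 24.2 CPM at 3.5 h (2.27 ± 0.58 SE, adjusted p = 0.00569, edgeR). Within batches K and T alone its adjusted p was 0.06 and 0.0982. Its 4 neighbours were not called. Aqu2.1.42015_001 had 7.38, 21.9 and 31.2 CPM at 10 h, against 30.1, 69.5 and 125 CPM at 3.5 h, and fell by 1.90 on the log2 scale (adjusted p = 4.9e-05, edgeR). Members of the same run could move in opposite directions, as Aqu2.1.41373_001 rose by 1.64 ± 0.49 (SE, adjusted p = 0.0193) and Aqu2.1.41375_001 fell by 0.73 (adjusted p = 0.0259), in edgeR, whereas Aqu2.1.41374_001 between them was not called. Both calls were lost within K and T (adjusted p up to 0.384 and 0.229). Aqu2.1.33569_001 fell by 1.14 (adjusted p = 0.0476, edgeR), with an adjusted p of 0.285 within K and 0.124 within T.

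Between seawater larvae at 3.5 h and uncued larvae at 0.5 h, 0 members rose and 5 fell, beside 6.03% of all features called (3.2% higher and 2.84% lower). The members' median was -0.24, against 0.01 over all features. Among 1027 models past the threshold outside the runs, 19 rose and 43 fell. The uncued larvae had not been held in wells, and age cannot be told apart from that handling here. Aqu2.1.27551_001 had 3.46, 10.2 and 24.2 CPM at 3.5 h, against 20.3, 45.9 and 87.3 CPM at 0.5 h (log2 fold change -2.06 ± 0.58 SE, adjusted p = 0.0163, edgeR). It was thus lower at 3.5 h than at both 0.5 h and 10 h. Aqu2.1.41222_001 had 1.84, 2.68 and 6.92 CPM at 3.5 h, against 4.28, 13.5 and 16.2 CPM at 0.5 h (-1.95 ± 0.55 SE, adjusted p = 0.0145, edgeR). Aqu2.1.44145_001 had 28.3, 43.6 and 65.2 CPM at 3.5 h, against 49.8, 99.6 and 149 CPM at 0.5 h (-1.17 ± 0.32 SE, adjusted p = 0.0135, edgeR). A fit of the compared groups alone called 15 members, 1 higher and 14 lower, beside 1022 of 14939 features. Within batch K 5 members were called, beside 401 of 14947 features, and within T 0, beside 174 of 14949. Within T the adjusted p of these 3 models ran from 0.210 to 0.239, and Aqu2.1.27551_001 had 0.0559 within K.

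**Figure D5:**
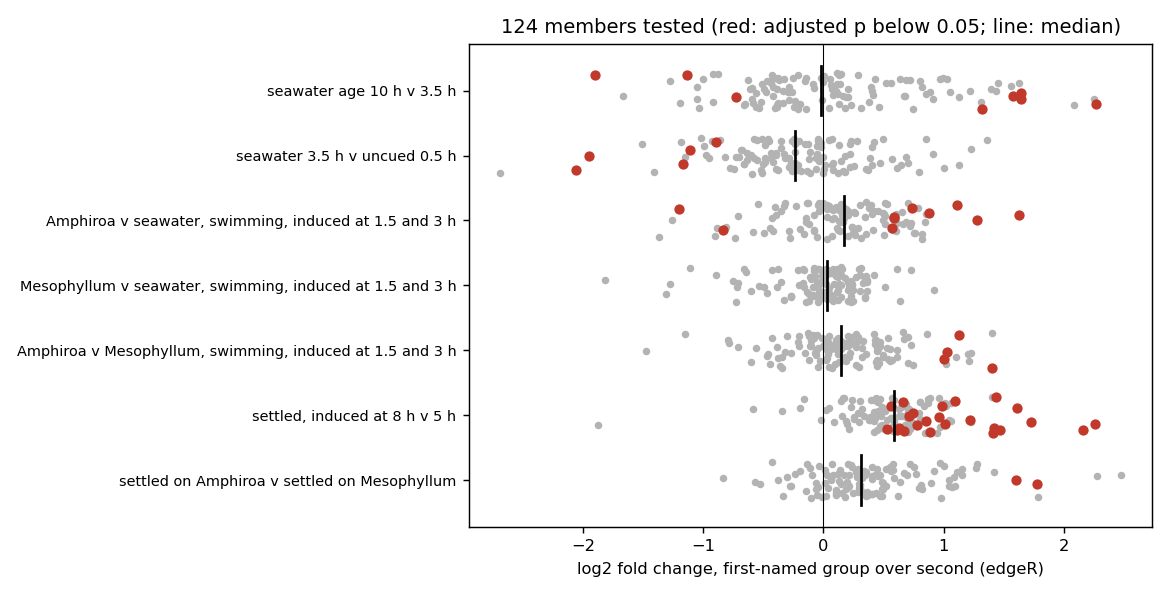
Log2 fold change (edgeR, first-named group over the second) of the 124 tested members in each of 7 comparisons, with 1 point per member, red where the adjusted p is below 0.05 and a line at the median. The medians run from -0.24 for seawater at 3.5 h over uncued larvae to 0.59 for settled animals at 8 h over those at 5 h.

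Swimming larvae given A. fragilissima at 1.5 or 3 h differed from seawater larvae of those ages in 10 members. Of the 124 tested 8 rose and 2 fell, beside 5.15% of all features called (1.95% higher and 3.2% lower), and 84 had a positive log2 fold change. The members' median was 0.17, against -0.03 over all features. Outside the runs 55 models past the threshold rose and 8 fell of 1027. The compared larvae were those that had not settled, and a response to the alga and the selection of non-settlers cannot be told apart. With log2 total count as a covariate 6 members were called, beside 533 of 14950 features. Within K 7 were called, beside 383 of 14947 features, and within T 4, beside 256 of 14949. A fit of the compared groups alone called 16, beside 875 of 14946 features.

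The member with the largest rise was Aqu2.1.42015_001. It had 47.2, 123 and 438 CPM in the lowest, median and highest larva with A. fragilissima, against 14.1, 44.5 and 125 CPM in seawater (18 larvae each, log2 fold change 1.63 ± 0.25 SE, adjusted p = 1.66e-06, edgeR). In larvae with A. fragilissima it averaged 180 ± 109 CPM after induction at 1.5 h, 125 ± 102 CPM at 3 h, 15.6 ± 5.74 CPM at 5 h and 20.6 ± 11.7 CPM at 8 h (SD, n = 9 each). In seawater the means were 73.2 ± 28.1, 30.6 ± 12.5, 17.9 ± 9.29 and 21.3 ± 7.31 CPM at the same ages (SD, n = 9 each), so that levels were lower at the later ages with and without this alga. Settled animals of both algae had means of 58.0 to 108 CPM. Its neighbour Aqu2.1.42016_001 rose by 0.57 ± 0.17 (SE, adjusted p = 0.0242, edgeR) and Aqu2.1.42017_001 had 0.51 ± 0.32 (SE, adjusted p = 0.421, edgeR).

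Aqu2.1.30884_001 had 66.6, 106 and 234 CPM with A. fragilissima, against 32.3, 47.03 and 82.4 CPM in seawater, and 14 of the 18 larvae with the alga lay above all seawater larvae (1.27 ± 0.20 SE, adjusted p = 4.49e-06, edgeR). Its group means with A. fragilissima lay between 106 and 123 CPM at all 4 ages, against 40.4 to 52.3 CPM in seawater. Uncued larvae at 0.5 h had 108 CPM, so the level of larvae with the alga was close to that of the youngest larvae. Settled groups had means of 194 to 322 CPM. The neighbours Aqu2.1.30885_001 and Aqu2.1.30886_001, with larger settlement differences, had log2 fold changes of 0.18 ± 0.27 and 0.20 ± 0.22 (SE) and were not called. The other rise among the largest was Aqu2.1.39808_001, with 1.11 ± 0.25 (SE, adjusted p = 0.00133, edgeR), and its adjusted p was 0.0988 within K. Aqu2.1.25555_001 fell by 1.20 (adjusted p = 0.00186) and Aqu2.1.43254_001 fell by 0.83 (adjusted p = 0.00281), in edgeR, with adjusted p of 0.0548 and 0.186 within T. At least 2 members were called in each of 2 runs.

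With Mesophyllum sp. at 1.5 or 3 h, 0 of 124 members were called by edgeR against seawater, and 4 of them and 996 of 14950 features had an unadjusted p below 0.05. Over all features 0.0736% were called (0.0535% higher and 0.0201% lower), and DESeq2 called 0 members as well, beside 36 of 14937 features. The median log2 fold change of the members was 0.03. Set against each other, the algae differed in 4 members, all higher with A. fragilissima, beside 2.04% of all features called (0.722% higher and 1.32% lower). Aqu2.1.42015_001 had a median of 123 CPM beside A. fragilissima, against 49.9 CPM beside Mesophyllum sp. (18 larvae each, log2 fold change 1.40 ± 0.24 SE, adjusted p = 8.76e-05, edgeR). Aqu2.1.30884_001 had 106 CPM with A. fragilissima, against 51.9 CPM with the crustose alga (1.12 ± 0.20 SE, adjusted p = 0.000148, edgeR). Aqu2.1.39654_001 had 9.16 CPM with A. fragilissima, against 5.25 CPM with the crustose alga (1.03 ± 0.23 SE, adjusted p = 0.00445, edgeR). A fit of the compared groups alone called 11 members, 10 higher and 1 lower, beside 281 of 14946 features. Within batches the calls were 0 in C, 1 in K and 0 in T, beside 4, 37 and 105 features. The log2 fold changes of these 3 models stayed between 0.99 and 1.33 within the batches. A test of whether the cue effect differed between induction at 3 h and 1.5 h called 0 members for A. fragilissima (0.0401% of all features) and 0 for Mesophyllum sp. (0% of all features). At an unadjusted p below 0.05 edgeR gave 2 members for A. fragilissima, beside 710 of 14950 features, and 3 for Mesophyllum sp., beside 653 features.

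Among the 124 members, 24 were called between settled animals induced at 8 h and at 5 h, all of them higher at 8 h. The settled animals gave their pooled values to the rule, so these counts are not independent of the choice of members and say nothing of the runs as such. Of the members 24 rose and 0 fell, beside 7.34% of all features called (3.82% higher and 3.53% lower), and 118 had a positive log2 fold change. The members' median was 0.59, against -0.02 over all features. Outside the runs 153 models past the threshold rose and 1 fell of 1027, so that 14.9% rose there against 19.4% of the members. The count was 11 within batch C, beside 533 of 14950 features called. In a fit of the settled groups alone it was 2, beside 150 of 14948 features. Calls over all features thus also dropped, from 1098 in the main fit, and why the counts differed was not tested.

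Aqu2.1.26574_001, of the longest run, kept its call in each alternative fit. It had 7.94, 42.96 and 143 CPM in the lowest, median and highest of 14 animals at 8 h, against 3.02, 9.82 and 33.8 CPM in 13 animals at 5 h, and 9 of the 14 lay above all 13 (log2 fold change 2.16 ± 0.43 SE, adjusted p = 0.000227, edgeR). With A. fragilissima it averaged 63.9 ± 39.7 CPM at 8 h (SD, n = 7) and 15.6 ± 12.2 CPM at 5 h (SD, n = 6), and with Mesophyllum sp. 38.7 ± 25.7 CPM at 8 h and 11.7 ± 7.91 CPM at 5 h (SD, n = 7 each). Aqu2.1.26686_001 had medians of 7.53 CPM at 8 h and 0.527 CPM at 5 h, with wide overlap. Its log2 fold change was 2.26 ± 0.62 (SE, adjusted p = 0.011, edgeR). The adjusted p in edgeR was 0.0524 within C, 0.150 in the settled groups alone and 0.129 with the replicate block. In the remaining edgeR fits it ran from 0.0106 to 0.0236. DESeq2 gave 2.25 ± 1.00 (SE) and no adjusted p. This model averaged 0.246 CPM in the swimming larvae of the rule and 0.0825 CPM in the other larvae. Its highest values there were 2.78 and 0.944 CPM, below the floor of the filter. It thus passed the filter through settled animals alone, and no conclusion is drawn from its call, which is counted among the 24. Other tested members were in the same position, such as Aqu2.1.27554_001 with at most 1.54 and 2.16 CPM in these larvae. Aqu2.1.41222_001 had medians of 87.0 CPM at 8 h and 5.62 CPM at 5 h, and ranges that overlapped (1.73 ± 0.43 SE, adjusted p = 0.00453, edgeR). In the settled groups alone it had 2.37 ± 0.71 (SE, adjusted p = 0.108, edgeR). A test of whether the difference between ages depended on the alga called 0 members in edgeR (0.0535% of all features), while 41 of 124 members and 1370 of 14950 features had an unadjusted p below 0.05. The change from 5 h to 8 h with A. fragilissima minus that with Mesophyllum sp. had a median of -0.96 over the members, with 10 of 124 positive, against 0.04 over all features. The settled animals gave values to the rule, and the members varied together among them. These counts and this median are therefore not separate signals, and no conclusion on age and alga is drawn from them. The group medians of the animals' mean log2(CPM + 1) were 6.12 at 8 h and 5.91 at 5 h with A. fragilissima, and 5.95 at 8 h and 4.51 at 5 h with Mesophyllum sp.

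Between animals settled with A. fragilissima and with Mesophyllum sp., 2 of 124 members were called, both higher with A. fragilissima. Over all features 0.428% were called (0.161% higher and 0.268% lower). The settled animals gave their pooled values to the rule here too, so these counts are not independent of the choice of members. Of the members 102 had a positive log2 fold change, and outside the runs 2 models past the threshold rose and 1 fell of 1027. Aqu2.1.41222_001 had 2.64, 117 and 294 CPM in the lowest, median and highest of 13 animals with A. fragilissima, against 2.07, 14.8 and 148 CPM in 14 animals with Mesophyllum sp. (1.78 ± 0.43 SE, adjusted p = 0.0265, edgeR). Aqu2.1.42017_001 had 12.7, 120 and 521 CPM with A. fragilissima, against 10.3, 37.8 and 192 CPM with Mesophyllum sp. (1.61 ± 0.36 SE, adjusted p = 0.0211, edgeR). In both the ranges overlapped, and 3 and 4 of the 13 animals with A. fragilissima lay above all 14 with Mesophyllum sp. A fit of the settled groups alone gave both an adjusted p of 0.502, and within batch C it was 0.185, so 0 calls remained in either. Over all features these 2 fits called 0 as well.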

How the data were processed

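Polyadenylated RNA of 144 single animals was counted by CEL-Seq2, in 3 library batches named T, K and C. The counts per gene model are as the authors deposited them, whole numbers in a single table. Per the labels, a public CEL-Seq pipeline split the reads by barcode and they were mapped to the Aqu2.1 models. Which aligner and build served is not given in the sources used here.

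From those counts, CPM used column totals and log2(CPM + 1) had a pseudocount of 1. Members were chosen by the settlement difference; the members, the lists and the comparisons were chosen with earlier results of these data known. The test was edgeR's quasi-likelihood F test (version 4.0.16 in R 4.3.3, robust) with trimmed-mean scaling, a low-count filter by group that kept 14950 features with 99.4% of all counts, 17 group means and a batch term in 1 fit of 144 animals. Tests were 2-sided, with Benjamini-Hochberg adjustment over all features. DESeq2 1.42.0 and fits with another scaling, no filter, no batch term, a depth covariate, 1 batch or the compared groups only were alternatives. Python 3.11.15, pandas 2.3.3, NumPy 2.4.6, SciPy 1.17.1 and matplotlib 3.10.9 were used.

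Named models were the members of the 5 runs with the highest mean difference and of the longest run, up to 3 members with the largest rise and 3 with the largest fall among those called in each comparison, the pair and the run with the highest correlation in the 81 larvae, the 3 models nearest to the threshold on either side, and the most abundant member. Others are neighbours of these, or were named after their values were seen. Depth, as total counts, was 541737 to 4692279 (median 2011368.5), and it limits the models of a few CPM most. The gene table at hand matched 0 identifiers, and no sequences are reported.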

Additional observations from a re-analysis of the deposited data

Results flagged for a closer look

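Values of 17 groups' animal means and of the 24 members of the 6 described runs in the 4 settled groups were checked for an animal far from the others of its group. Of the 17 groups of animal means 5 were picked out, and of the 96 member groups 22. Chance picks out about 1 in 20 groups, and members share animals, so these are not separate signals.

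Among the animal means over the members, in log2(CPM + 1), replicate 6 settled with A. fragilissima at 8 h was lowest at 4.35, with the next at 5.58. Swimming larva 10 with A. fragilissima at 8 h was highest at 4.59 (next 4.03), and swimming larva 10 with Mesophyllum sp. at 5 h was highest at 4.54 (next 3.96). Seawater larva 2 at 8 h was highest at 4.18 (next 3.86), and uncued larva 7 at 0.5 h was lowest at 3.68 (next 3.87).

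In single members, the same settled animal, replicate 6 with A. fragilissima at 8 h, was lowest and apart in 14 models. Its values were 256 CPM for Aqu2.1.27551_001, 51.4 for Aqu2.1.27552_001, 1.25 for Aqu2.1.27553_001, 0.835 for Aqu2.1.27554_001 and 21.3 for Aqu2.1.27555_001. They were 436 CPM for Aqu2.1.38629_001, 3.76 for Aqu2.1.38630_001 and 48.4 for Aqu2.1.38631_001, and 103 CPM for Aqu2.1.30884_001, 27.6 for Aqu2.1.30885_001 and 632 for Aqu2.1.30886_001. They were 19.6 CPM for Aqu2.1.26685_001, 33.4 for Aqu2.1.26687_001 and 3.34 for Aqu2.1.26575_001. Replicate 8 with Mesophyllum sp. at 8 h was lowest with 337 CPM for Aqu2.1.27551_001, 83.1 for Aqu2.1.27552_001 and 57.9 for Aqu2.1.27555_001. Replicate 5 with A. fragilissima at 5 h was lowest with 5.80 CPM for Aqu2.1.27552_001, 90.7 for Aqu2.1.30884_001, 345 for Aqu2.1.30886_001 and 21.1 for Aqu2.1.26685_001. Replicate 10 with Mesophyllum sp. at 5 h was lowest with 4.63 CPM for Aqu2.1.27552_001.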

How the results depend on the processing

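Over 81 alternative settings of the counts, 56 stayed within 1.5 times the reported value and 25 moved further. Of 217 settings for the 22 named calls, 177 kept the call, 40 lost it and 0 turned its direction, and 5 of the 22 kept it in every setting. The filter on totals under 1000000 counts was added after seeing the data. For seawater at 10 h over 3.5 h (8 calls), the compared groups alone gave 18, K 4, T 4 and DESeq2 13. For 3.5 h over 0.5 h (5), the compared groups gave 15 and T 0. For A. fragilissima over seawater (10), the depth covariate gave 6, the compared groups 16 and T 4. For A. fragilissima over Mesophyllum sp. (4), the compared groups gave 11, C 0, K 1 and T 0. For settled at 8 h over 5 h (24), the compared groups gave 2 and C 11. For settled with A. fragilissima over Mesophyllum sp. (2), no filter gave 1, the depth covariate 0, animals under 1000000 counts left out 1, the compared groups 0, C 0 and DESeq2 4. Over all features these fits called 41, 26, 20, 0, 0 and 180, in the same order. The cause was not tested. With trimmed-mean CPM the rule found 274 members (81 runs, 132 shared with the 135), and runs of at least 4 held 39. Mean differences found 123 members, of which 99 were shared.

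Replicate numbers in the titles did not pair animals: 78 of 868 same-number pairs of animals had a correlation of deviations above 0.1, with a median of -0.0117, against -0.00677 for other pairs. With the replicate block, 10 members were called for settled at 8 h over 5 h, beside 552 of all features. For settled with A. fragilissima over Mesophyllum sp. 0 members were called, beside 15 of all features. Low members are limited by depth, and 11 of the 135 did not pass the filter.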

Other observations

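Some runs lay close to each other. The run Aqu2.1.38623_001 to Aqu2.1.38625_001 was separated from the run that starts at Aqu2.1.38629_001 by 3 models. Aqu2.1.38623_001 had 383, 1569 and 3683 CPM in the lowest, median and highest settled animal, against 146, 731 and 1325 CPM in swimming larvae. Between the runs, Aqu2.1.38626_001 averaged 140 CPM in settled animals against 200 CPM in swimming larvae, so that a model lower in settled animals lay next to them. The run Aqu2.1.27541_001 to Aqu2.1.27543_001 was separated from the run that starts at Aqu2.1.27551_001 by 7 models. Aqu2.1.27541_001 had 180, 1074 and 1965 CPM in settled animals, against 104, 234 and 428 CPM in swimming larvae, and the model after that run, Aqu2.1.27544_001, had a settlement difference of -0.63.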
